A study of Homo sapiens with 20 samples.

Results

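The genes described here are the 4 inhibitors of DNA binding, ID1, ID2, ID3 and ID4, and the 3 E proteins that they bind, TCF3, TCF4 and TCF12. They were taken by name from the deposited count files, where all 7 were found among 23368 genes. RNA-seq libraries had been made from the human cell lines Panc1 (from a ductal carcinoma of the pancreas) and A549 (from an adenocarcinoma of the lung), to ask how the TGFβ-induced factor KLF10 bears on the epithelial-to-mesenchymal transition. Cells of each line had received an siRNA to KLF10 (siKLF10) or a control (siCont). Both were measured without TGFβ and with TGFβ at 5 ng/ml for 72 h, which gave 4 groups per line. Panc1 had 3 libraries per group (A, B and C) and A549 had 2 (A and B), 20 in all. The labels list SV40 large T antigen as the immortalisation type of every sample. The labels are silent on whether libraries within a group are independent cultures. The p-values therefore reflect only how far these libraries varied, and that variation may be technical.

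E proteins are basic helix-loop-helix transcription factors that bind E-box DNA as homodimers or with tissue-restricted partners. ID proteins share the helix-loop-helix but lack the basic DNA-binding stretch, so a dimer of an ID protein with an E protein cannot bind DNA. ID genes are classical immediate targets of BMP signalling through SMAD1 and SMAD5, while TGFβ, acting through SMAD3, is known in epithelial cells to repress ID1 with the help of ATF3. TCF3, TCF4 and TCF12 are each known as repressors of the E-cadherin gene CDH1. TCF4 here is the E protein also called E2-2, not the WNT effector TCF7L2 that shares the alias.

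The proximal promoters of the 4 ID genes are shown because these genes are read as a family below and did not respond alike. Each is the 250 bases before the start site, 5′ to 3′ on the gene's strand, from the RefSeq promoter table (build GRCh38.p14). Capitals mark matches on either strand to any of 4 short motifs. The E-box is CANNTG. The letters read as a SMAD-binding element are CAGAC. The CAAT box is searched as CCAAT and the TATA box as TATAA.
ID1, chr20:31605039-31605288, plus strand: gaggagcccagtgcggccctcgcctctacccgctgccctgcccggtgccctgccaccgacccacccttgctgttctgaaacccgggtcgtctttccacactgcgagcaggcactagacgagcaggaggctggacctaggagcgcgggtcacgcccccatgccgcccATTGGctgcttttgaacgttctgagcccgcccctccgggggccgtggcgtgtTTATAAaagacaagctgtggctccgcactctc
ID2, chr2:8681806-8682055, plus strand: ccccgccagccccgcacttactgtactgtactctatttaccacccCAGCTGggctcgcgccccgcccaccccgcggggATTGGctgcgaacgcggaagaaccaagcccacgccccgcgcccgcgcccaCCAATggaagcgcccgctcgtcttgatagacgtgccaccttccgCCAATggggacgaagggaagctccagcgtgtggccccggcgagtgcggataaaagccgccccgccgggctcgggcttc
ID3, chr1:23559502-23559751, minus strand: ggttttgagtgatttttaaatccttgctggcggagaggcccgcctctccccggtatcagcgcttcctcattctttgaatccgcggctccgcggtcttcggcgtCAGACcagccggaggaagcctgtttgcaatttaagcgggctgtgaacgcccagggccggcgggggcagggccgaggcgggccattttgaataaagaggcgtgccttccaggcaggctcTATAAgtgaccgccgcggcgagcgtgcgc
ID4, chr6:19837120-19837369, plus strand: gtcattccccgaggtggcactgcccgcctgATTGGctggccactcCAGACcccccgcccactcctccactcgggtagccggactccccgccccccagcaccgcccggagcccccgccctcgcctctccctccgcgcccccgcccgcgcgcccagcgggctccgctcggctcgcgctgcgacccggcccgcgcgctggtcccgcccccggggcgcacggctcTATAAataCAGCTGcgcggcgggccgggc
ID1 held TATAA with its first base at −31 from the start site, and ID3 and ID4 held it at −29. CCAAT was read at −84 in ID1, at −172, −122 and −78 in ID2 and at −220 in ID4. The E-box was read at −205 in ID2 and at −21 in ID4, and CAGAC at −147 in ID3 and at −205 in ID4. Over all 35116 promoters of the table, in windows of 300 bases that also take in 50 bases after the start, CANNTG was held by 68.7%, CAGAC by 45.3%, CCAAT by 34.6% and TATAA by 20.4%. The BMP-responsive letters GGCGCC (19.2% of all promoters) and the palindrome GTCTAGAC (0.202%) were also searched and are not in these 4 windows. CCAAT and TATAA were added after the sequences had been read. A match is a description of letters, and a missing match says only that the letters are not in that window.

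The Panc1 libraries held 11152625 to 15571367 gene counts each and the A549 libraries 6846761 to 19070551. Levels are given in CPM, the count of a gene relative to its library's size as scaled by TMM. Means are ± SD with n = 3 for Panc1 groups and n = 2 for A549 groups. KLF10 was lower in siKLF10 than in siCont in Panc1 (80.2 ± 2.9 against 136 ± 4.71 CPM, adjusted p = 2.58e-09). In A549 it measured 106 ± 3.22 against 111 ± 2.47 CPM (adjusted p = 0.743), and with TGFβ 145 ± 2.8 against 174 ± 1.06 CPM (adjusted p = 0.00775), so the A549 groups are called the libraries labelled siKLF10. All 5 epithelial markers checked (KRT8, KRT18, KRT19, EPCAM and CDH1) averaged at least 1 CPM in both lines. The lung markers NKX2-1, SFTPB, SFTPC and NAPSA held only 35, 4, 12 and 85 counts over the 8 A549 libraries. Of the blood cell markers CD3E held 0 counts in both lines, and PTPRC held 4 in Panc1 and 10 in A549. The 3 Panc1 siCont libraries stood apart in basal keratinocyte markers, whose sum ran from 23.9 to 65.9 CPM there and from 6.48 to 11.5 CPM in the other 9 Panc1 libraries. KRT5 supplied most of it, at 60.5 CPM in siCont A and 21.8 and 22.3 CPM in B and C.

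Without TGFβ or siKLF10, all 4 ID genes were higher in A549 than in Panc1, whereas the log2 differences of the E proteins lay between −0.22 and −0.09. ID1 measured 347 and 341 CPM in the A and B libraries of A549, against 172, 190 and 167 CPM in the A, B and C libraries of Panc1. ID3 measured 243 and 235 CPM in A549 and 58.7, 61.0 and 59.7 CPM in Panc1. ID2 measured 94.9 and 99.1 CPM in A549 and 14.5, 15.9 and 20.2 CPM in Panc1. For all 3 genes the lowest A549 library lay above the highest Panc1 library. ID4 was abundant enough to follow in A549 (28.8 and 29.0 CPM), but in Panc1 it stood at 1.25, 1.34 and 1.27 CPM, which rests on 17, 17 and 19 counts. The differences on the log2 scale (A549 minus Panc1, ± SE) were 0.96 ± 0.0945 for ID1, 2.52 ± 0.102 for ID2, 2.0 ± 0.122 for ID3 and 4.48 ± 0.213 for ID4, with adjusted p from 4.33e-22 to 1.1e-10. TCF12 was lower in A549 (−0.22 ± 0.0836, adjusted p = 0.0158), a call lost without Panc1 siCont C (−0.13, adjusted p = 0.149) or A549 siCont A (−0.19, adjusted p = 0.115). TCF3 (−0.09 ± 0.0831, adjusted p = 0.33) and TCF4 (−0.21 ± 0.16, adjusted p = 0.221) were not called. The lines differed in 81.9% of the 15058 genes tested between them, so 5 called members of 7 is near the background. In every comparison between the lines, here and below, line and any batch of the line cannot be told apart. The share of reads in no annotated gene also differed, at 33.6 to 36.9% for Panc1 and 57.6 to 60.1% for A549, and its part was not tested.

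Per kilobase of exon, ID1 was the most abundant ID transcript in Panc1 siCont (143 CPM per kb), ahead of ID3 (47.8), ID2 (7.89) and ID4 (0.546). A549 siCont had the same order, with 279 CPM per kb for ID1, 191 for ID3, 45.3 for ID2 and 12.3 for ID4. ID1 made up 71.8% of the summed ID level per kb in Panc1 siCont and 82.2% with TGFβ. In A549 ID1 fell from 52.9% of that sum in siCont to 33.9% with TGFβ, while the share of ID3 went from 36.2 to 61.4%. These shares are a description of group means and carry no test.

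**Figure D1:**
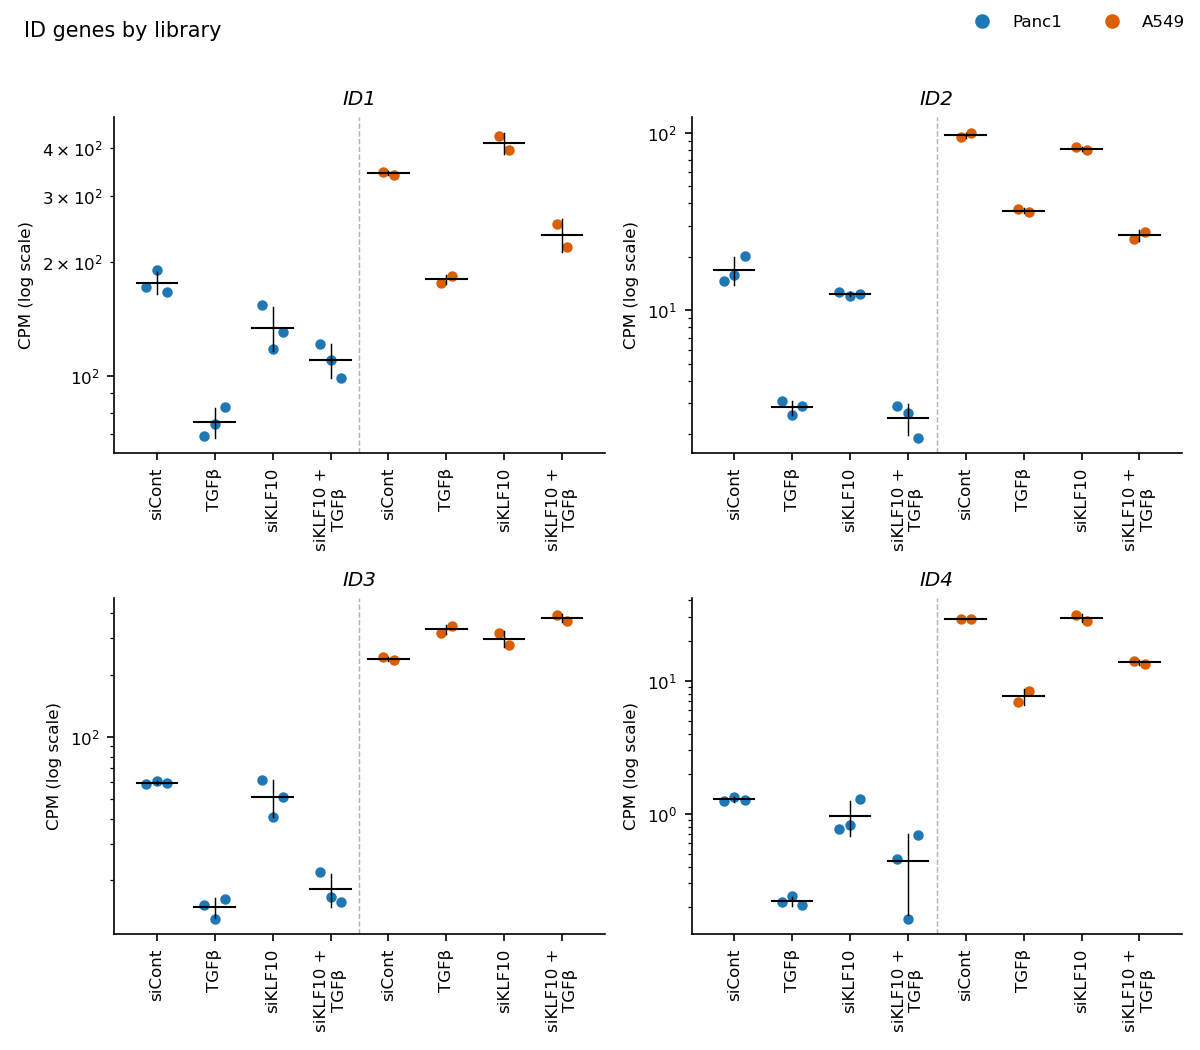
Level of each ID gene in every library, in CPM on a log axis with its own range for each gene. Points are libraries, horizontal lines are group means and vertical lines ± 1 SD (n = 3 per Panc1 group, n = 2 per A549 group). ID3 with TGFβ lies below siCont in Panc1 (14.8 against 59.8 CPM) and above it in A549 (332 against 239 CPM).

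ID1, ID2 and ID3 fell with TGFβ in Panc1, where ID4 was too low to follow closely. ID2, an inhibitor linked to differentiation and cell-cycle control, stood at 14.5, 15.9 and 20.2 CPM in the A, B and C libraries of siCont, against 3.06, 2.56 and 2.88 CPM in those of TGFβ. ID3, which overlaps in function with ID1 in vascular development, measured 58.7, 61.0 and 59.7 CPM in siCont and 15.2, 13.1 and 16.3 CPM in TGFβ. ID1, the best known BMP target of the family, measured 172, 190 and 167 CPM in siCont and 69.2, 74.4 and 82.7 CPM in TGFβ. For each of these genes the 3 TGFβ libraries lay below all siCont libraries. ID2 fell 5.97-fold (log2 −2.58 ± 0.169, adjusted p = 9.34e-12), ID3 4.04-fold (−2.01 ± 0.145, adjusted p = 1.38e-08) and ID1 2.35-fold (−1.23 ± 0.0943, adjusted p = 5.09e-09), by the quasi-likelihood test of edgeR with Benjamini-Hochberg adjusted p over all genes tested. ID4 went from 17, 17 and 19 counts in siCont to 3 in each TGFβ library (log2 −2.50 ± 0.535, adjusted p = 0.00016). The TGFβ counts of ID4 are at the limit that a count of 0 allows (3 counts), and the gene passed the filter on low counts only through the groups where it was higher, so its p is a description. Adjusted p was under 0.05 for 29.0% of the 13218 genes tested in Panc1 in this comparison, 14.0% in the higher and 15.1% in the lower direction.

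All 3 siCont libraries carried the higher KRT5 level, so leaving out 1 of them does not remove it, and its part in these values was not tested. Within siKLF10, a comparison with no siCont library, TGFβ gave −2.30 ± 0.182 for ID2, −1.48 ± 0.143 for ID3 and −0.28 ± 0.0938 for ID1. The ID1 groups overlapped in this comparison, and the ID1 call was lost without siKLF10 A or siKLF10 with TGFβ C. In each of the 12 fits of TGFβ against siCont that left out 1 library these 3 genes were called lower, and the log2 change ran from −1.30 to −1.17 for ID1, from −2.67 to −2.42 for ID2 and from −2.08 to −1.93 for ID3. The epithelial marker sum was also lower with TGFβ (435 to 459 CPM against 845 to 970 CPM in siCont), and the fibroblast marker sum was higher (26.2 to 30.1 against 11.8 to 13.3 CPM). The fibroblast sum was mostly COL3A1, with 2903 counts over the Panc1 libraries. PDGFRB held 509, and DCN, PDGFRA and COL1A2 held 33, 20 and 9. The part of these shifts in the ID values was not tested. In bulk RNA, fewer cells that express a gene and less RNA per cell cannot be told apart.

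In A549, ID1, ID2 and ID4 fell with TGFβ and ID3 rose. ID4, an inhibitor best known from neural and mammary epithelium, stood at 28.8 and 29.0 CPM in the A and B libraries of siCont and at 6.90 and 8.34 CPM in those of TGFβ, a fall of 3.65-fold (log2 −1.87 ± 0.151, adjusted p = 3.82e-10). ID2 measured 94.9 and 99.1 CPM in siCont and 37.3 and 35.7 CPM in TGFβ, a fall of 2.53-fold (−1.34 ± 0.0916, adjusted p = 4.8e-11). ID1 measured 347 and 341 CPM in siCont and 176 and 184 CPM in TGFβ, a fall of 1.82-fold (−0.86 ± 0.0836, adjusted p = 1.71e-08). ID3 went the other way, from 243 and 235 CPM in siCont to 320 and 345 CPM in TGFβ, a rise of 1.46-fold (0.55 ± 0.0806, adjusted p = 7.47e-06). Both TGFβ libraries of ID3 lay above both siCont libraries, and both lay below them for the other 3 ID genes. Of the 14124 genes tested in A549, 47.7% were called in this comparison, 24.2% higher and 23.5% lower, and all 7 members were called. The epithelial marker sum was lower with TGFβ here too (1577 to 1763 against 4691 to 4855 CPM in siCont), and the fibroblast marker sum was higher (2.73 to 4.04 against 0.628 to 1.04 CPM). The fibroblast markers were low in this line, where PDGFRA held the most with 124 counts over all A549 libraries. The part of these sums in the values was not tested.

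ID2B, the row of a sequence copy of ID2, held at most 0.267 CPM in any Panc1 library. In A549 it averaged 3.19 ± 0.324 CPM in siCont and 0.758 ± 0.461 CPM in TGFβ and was called lower (log2 −1.89 ± 0.44, adjusted p = 0.000414), as ID2 was. The sources used here do not say how the counting divided reads between the 2 rows.

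The difference in ID3 between the lines was tested directly. The TGFβ response of ID3 was 2.48 ± 0.185 higher on the log2 scale in A549 than in Panc1 (95% interval 2.09 to 2.86, adjusted p = 7.69e-10). ID2 fell in both lines and fell less in A549 (difference 1.16 ± 0.191, adjusted p = 7.78e-06). For ID1 the difference was 0.29 ± 0.137 (interval 0.01 to 0.57, adjusted p = 0.113), and it was called only when no filter on low counts was applied (0.39, adjusted p = 0.0071). ID4 gave 0.54 ± 0.516 (interval −0.51 to 1.59, adjusted p = 0.419), an interval wide enough to hold a considerable difference in either direction. In this comparison 31.0% of 15058 genes were called, and 4 of the 7 members were.

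**Figure D2:**
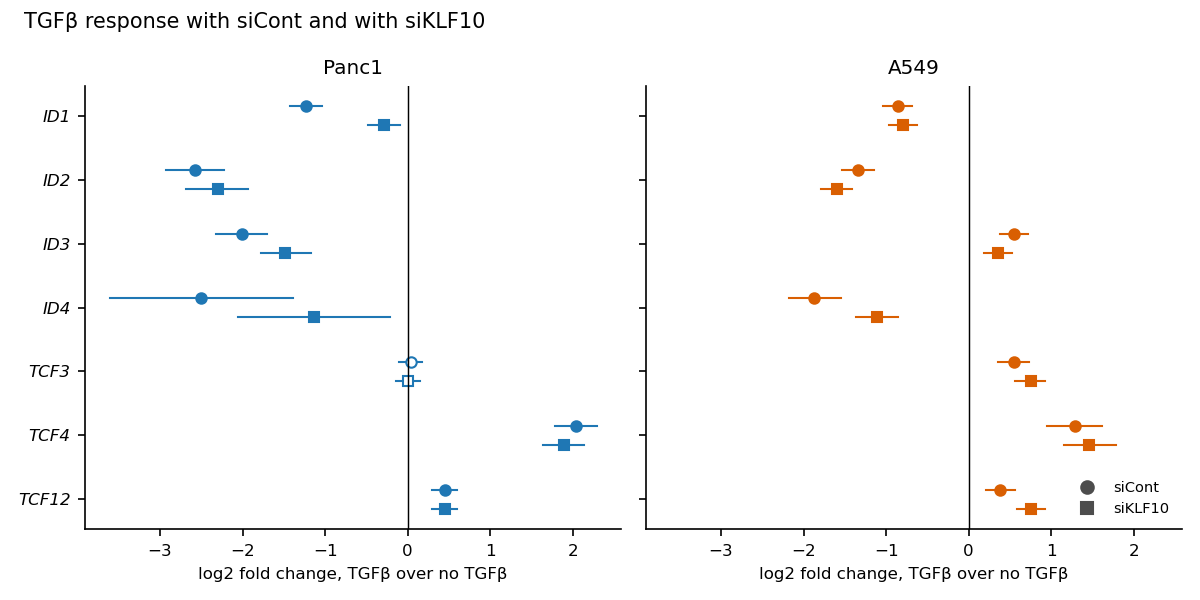
Log2 change with TGFβ for the 7 genes in Panc1 (left) and A549 (right), with siCont (circles) and with siKLF10 (squares); bars are 95% intervals from the edgeR fit. Filled symbols have an adjusted p under 0.05. ID3 sits at −2.01 in Panc1 and 0.55 in A549, and the Panc1 ID1 symbols are far apart (−1.23 with siCont and −0.28 with siKLF10).

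TCF4 and TCF12 rose with TGFβ in both lines, and TCF3 rose in A549. TCF4, the E protein that regulates plasmacytoid dendritic and neural cells, stood at 7.26, 5.97 and 7.40 CPM in the A, B and C libraries of Panc1 siCont, against 30.3, 27.6 and 27.8 CPM with TGFβ. In A549 it measured 6.24 and 5.65 CPM in siCont and 14.3 and 13.4 CPM in TGFβ. All TGFβ libraries lay above all siCont libraries in both lines. TCF4 rose 4.11-fold in Panc1 (log2 2.04 ± 0.12, adjusted p = 3.38e-12) and 2.44-fold in A549 (1.29 ± 0.16, adjusted p = 6.21e-07), and the rise was smaller in A549 (difference −0.83 ± 0.204, adjusted p = 0.00196).

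TCF12, also called HEB, stood at 110, 115 and 135 CPM in the A, B and C libraries of Panc1 siCont, against 170, 172 and 154 CPM with TGFβ. It measured 100 and 106 CPM in A549 siCont and 133 and 122 CPM in TGFβ. The groups did not overlap in either line. TCF12 rose 1.37-fold in Panc1 (log2 0.45 ± 0.0733, adjusted p = 4.34e-05) and by 0.38 ± 0.0842 on the log2 scale in A549 (adjusted p = 0.000752). The difference between lines was −0.15 ± 0.118 (interval −0.39 to 0.09, adjusted p = 0.362).

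TCF3, the gene of E12 and E47, stood at 91.0, 104 and 97.7 CPM in the A, B and C libraries of Panc1 siCont, against 95.9, 97.1 and 109 CPM with TGFβ. These 2 groups overlapped, and the change was 0.04 ± 0.0686 (interval −0.10 to 0.18, adjusted p = 0.727). In A549 it went from 91.2 and 92.2 CPM to 125 and 131 CPM and rose (log2 0.55 ± 0.0891, adjusted p = 2.77e-05). The response of TCF3 was higher in A549 (difference 0.43 ± 0.118, adjusted p = 0.00522).

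**Figure D3:**
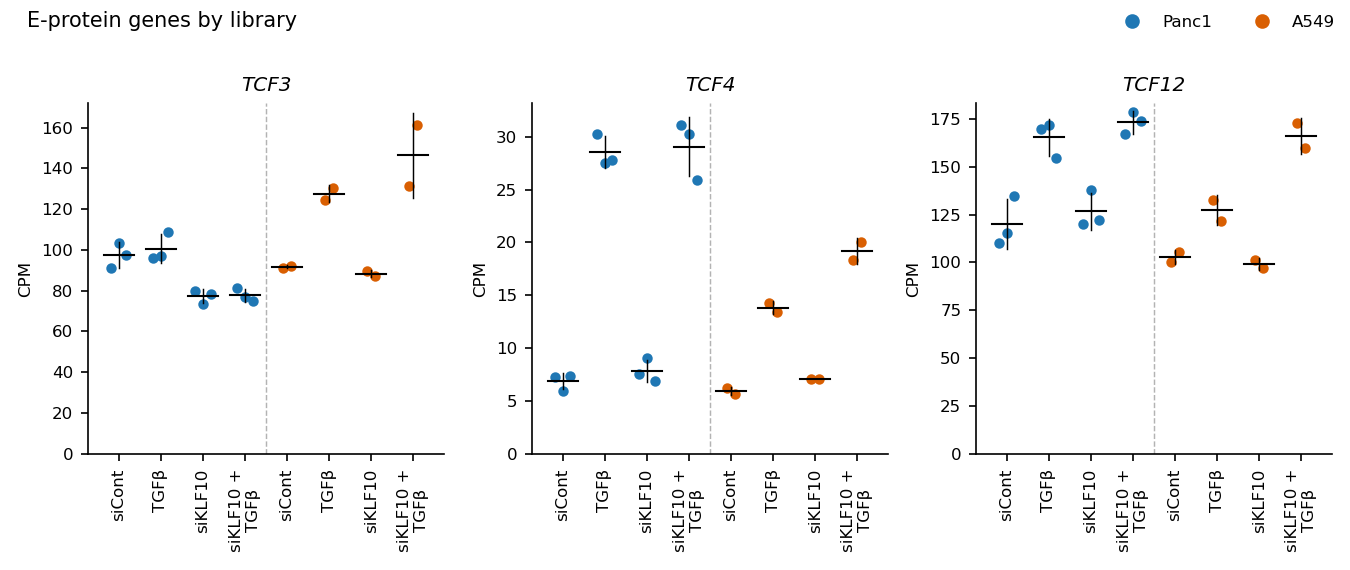
Level of each E-protein gene in every library, in CPM on linear axes from 0. Points are libraries, horizontal lines are group means and vertical lines ± 1 SD (n = 3 per Panc1 group, n = 2 per A549 group). TCF4 with TGFβ averages 28.5 CPM in Panc1 and 13.8 CPM in A549, above 6.88 and 5.95 CPM in siCont, and TCF3 in Panc1 averages 77.4 and 77.7 CPM in the siKLF10 groups and 97.4 and 101 CPM in the siCont groups.

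In Panc1 without TGFβ, siKLF10 lowered ID1, ID2 and TCF3. ID1 stood at 154, 118 and 131 CPM in the A, B and C libraries of siKLF10, all below the siCont range of 167 to 190 CPM (log2 −0.39 ± 0.0923, adjusted p = 0.0026). ID2 measured 12.7, 12.1 and 12.4 CPM (−0.45 ± 0.125, adjusted p = 0.00754), and this call was lost without siCont C, the library with the most ID2 (−0.29, adjusted p = 0.0813). TCF3 measured 80.1, 73.5 and 78.5 CPM, below every siCont library (−0.33 ± 0.0696, adjusted p = 0.000754). ID3 (−0.23 ± 0.128, adjusted p = 0.18), ID4 (−0.40 ± 0.34, adjusted p = 0.378), TCF4 (0.19 ± 0.137, adjusted p = 0.315) and TCF12 (0.08 ± 0.074, adjusted p = 0.437) were not called. ID3 was called without siKLF10 A (−0.39, adjusted p = 0.011). Of all genes tested, 35.6% were called in this comparison, which uses the same siCont libraries as the TGFβ comparison, and 3 of the 7 members were. The basal keratinocyte sum differed in it too (6.94 to 7.27 CPM in siKLF10 against 23.9 to 65.9 CPM in siCont), as did the pancreatic duct sum (392 to 412 against 466 to 484 CPM), and their part was not tested.

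With TGFβ, siKLF10 had the opposite sign on ID1 in Panc1. ID1 stood at 121, 111 and 98.8 CPM in the A, B and C libraries of siKLF10 with TGFβ, all above the TGFβ range of 69.2 to 82.7 CPM (1.47-fold, log2 0.56 ± 0.0958, adjusted p = 0.000138). TCF3 was again lower, at 81.4, 76.9 and 74.7 CPM (−0.36 ± 0.0695, adjusted p = 0.000232), and this comparison uses no siCont library. The values for the others were −0.17 ± 0.214 for ID2 (adjusted p = 0.54), 0.30 ± 0.159 for ID3 (adjusted p = 0.139), 0.96 ± 0.607 for ID4 (adjusted p = 0.189), 0.04 ± 0.0977 for TCF4 (adjusted p = 0.784) and 0.07 ± 0.0727 for TCF12 (adjusted p = 0.437). ID3 was called without siKLF10 B (0.30, adjusted p = 0.0461). The intervals of TCF4 (−0.16 to 0.24) and TCF12 (−0.08 to 0.22) were narrow, and that of ID4 (−0.30 to 2.22) was not. The background was 41.7% of genes called, and 2 of the 7 members were. The epithelial marker sum was also higher with siKLF10 and TGFβ (701 to 824 CPM against 435 to 459 CPM with TGFβ), although CDH1, a member of that list, was lower (2.08 ± 0.577 against 3.65 ± 0.697 CPM). The fibroblast marker sum was higher too (31.9 to 37.1 against 26.2 to 30.1 CPM). The part of these markers in the ID1 value was not tested.

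The interaction, which is the TGFβ response with siKLF10 minus that with siCont, was called in Panc1 for ID1 alone among the 7. It was 0.95 ± 0.133 (interval 0.67 to 1.23, adjusted p = 0.000323) and stayed between 0.86 and 1.06 when each of the 12 libraries was left out, called each time. The interaction uses the siCont libraries, all of which carried the higher KRT5 level. Leaving them out in turn does not remove that level, and its part in the interaction was not tested. Genes with a called interaction made up 4.42% of those tested. ID3 gave 0.53 ± 0.204 (adjusted p = 0.164), which was called without siKLF10 A (0.69, adjusted p = 0.0215). ID4 gave 1.36 ± 0.695 (adjusted p = 0.276), ID2 0.27 ± 0.248 (adjusted p = 0.605), TCF4 −0.15 ± 0.169 (adjusted p = 0.698), TCF3 −0.03 ± 0.0984 (adjusted p = 0.899) and TCF12 0.00 ± 0.104 (adjusted p = 0.986).

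Within siKLF10, the TGFβ response in Panc1 needs no siCont library. ID2 fell from 12.4 ± 0.347 to 2.47 ± 0.502 CPM (log2 −2.30 ± 0.182, adjusted p = 1.53e-10) and ID3 from 51.0 ± 10.5 to 18.1 ± 3.33 CPM (−1.48 ± 0.143, adjusted p = 3.62e-07). ID1 fell from 134 ± 18.0 to 110 ± 11.3 CPM (−0.28 ± 0.0938, adjusted p = 0.0197), but siKLF10 with TGFβ A (121 CPM) lay above siKLF10 B (118 CPM). That call was lost without siKLF10 A (−0.17, adjusted p = 0.119), and likewise when siKLF10 with TGFβ C was left out (−0.21, adjusted p = 0.0929). ID4 rested on 9, 11 and 17 counts against 7, 2 and 8 (−1.13 ± 0.444, adjusted p = 0.0336), and its call was lost in DESeq2 (adjusted p = 0.111), without the filter on low counts (adjusted p = 0.0524) and without any of siKLF10 C, siKLF10 with TGFβ A or siKLF10 with TGFβ B (adjusted p = 0.0648 to 0.171). TCF4 rose (1.89 ± 0.119, adjusted p = 7.08e-12), as did TCF12 (0.45 ± 0.0734, adjusted p = 3.21e-05), and TCF3 gave 0.01 ± 0.0705 (adjusted p = 0.958). In this comparison 45.0% of genes were called, and 6 of the 7 members were.

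**Figure D4:**
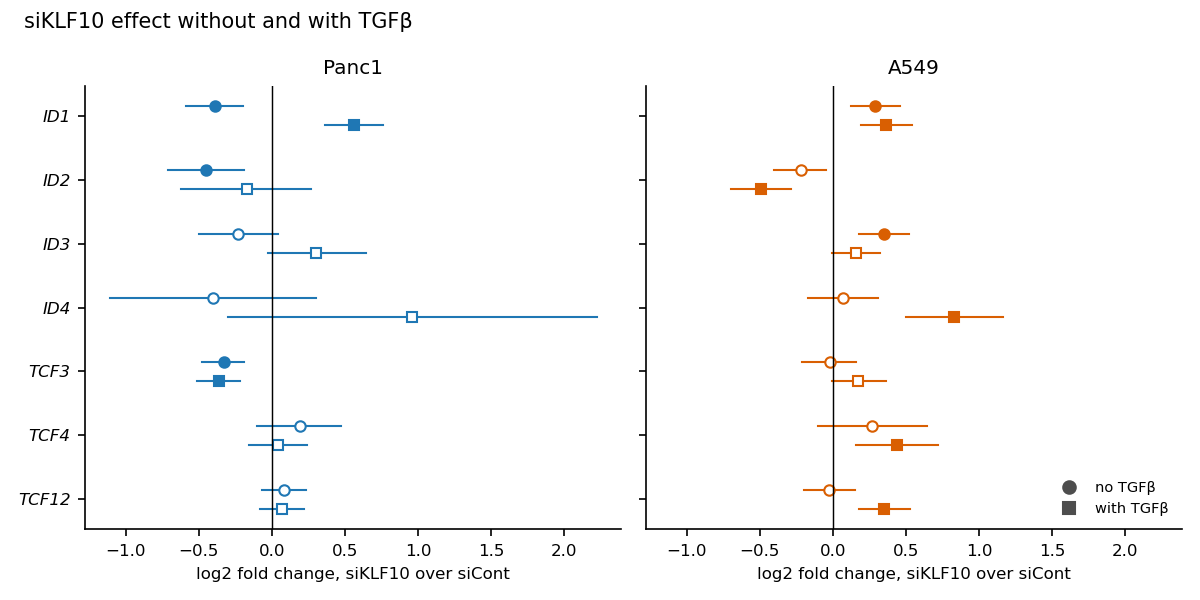
Log2 change of siKLF10 over siCont for the 7 genes in Panc1 (left) and A549 (right), without TGFβ (circles) and with it (squares); bars are 95% intervals from the edgeR fit. Filled symbols have an adjusted p under 0.05. ID1 in Panc1 lies at −0.39 without TGFβ and at 0.56 with it, while TCF3 lies at −0.33 and −0.36.

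The A549 libraries labelled siKLF10 differed from siCont by small amounts. Without TGFβ, ID1 measured 432 and 395 CPM against 347 and 341 CPM (log2 0.29 ± 0.0817, adjusted p = 0.0142), and ID3 measured 317 and 280 CPM against 243 and 235 CPM (0.35 ± 0.0806, adjusted p = 0.00401). Neither pair of groups overlapped, but the ID1 call was lost without siCont A (adjusted p = 0.0914), siCont B (adjusted p = 0.129) or siKLF10 A (adjusted p = 0.181), and the ID3 call without siCont B (adjusted p = 0.0729) or siKLF10 A (adjusted p = 0.115). ID2 gave −0.22 ± 0.0844 (adjusted p = 0.066), which was called when either siKLF10 with TGFβ library was left out (adjusted p = 0.0173 and 0.0174). ID4 gave 0.07 ± 0.116 (adjusted p = 0.74), TCF3 −0.02 ± 0.0905 (adjusted p = 0.89), TCF4 0.27 ± 0.176 (adjusted p = 0.318) and TCF12 −0.03 ± 0.085 (adjusted p = 0.872). Of all genes tested 19.5% were called, and 2 of the 7 members were.

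With TGFβ in A549, 5 of the 7 members differed between the libraries labelled siKLF10 and siCont, against 28.3% of all genes. ID4 measured 14.1 and 13.3 CPM against 6.90 and 8.34 CPM (log2 0.83 ± 0.158, adjusted p = 0.000379), and ID2 measured 25.1 and 27.7 CPM against 37.3 and 35.7 CPM (−0.49 ± 0.0986, adjusted p = 0.000731). Both calls held in all 8 fits that left out a library. ID1 (0.36 ± 0.084, adjusted p = 0.00254) lost its call without TGFβ A (adjusted p = 0.0574), and TCF12 (0.35 ± 0.0828, adjusted p = 0.00283) without TGFβ B (adjusted p = 0.0596). TCF4 (0.44 ± 0.135, adjusted p = 0.0162) lost it in DESeq2 (adjusted p = 0.153) and without TGFβ A, TGFβ B or siKLF10 with TGFβ B (adjusted p = 0.0797 to 0.106). ID3 gave 0.16 ± 0.0799 (adjusted p = 0.153), which was called without siKLF10 with TGFβ B (adjusted p = 0.0207). TCF3 gave 0.17 ± 0.0875 (adjusted p = 0.146), which was called without siKLF10 with TGFβ A (0.29, adjusted p = 0.00251). Marker sums differed without overlap in the same comparison, at 7.14 to 7.92 against 2.73 to 4.04 CPM for fibroblast, 9.56 to 10.8 against 5.32 CPM for basal keratinocyte and 1823 to 2186 against 1577 to 1763 CPM for epithelial markers, and their part was not tested.

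Within the A549 libraries labelled siKLF10, TGFβ again lowered ID1 (log2 −0.79 ± 0.0822, adjusted p = 4.36e-08), ID2 (−1.60 ± 0.0919, adjusted p = 2.14e-12) and ID4 (−1.11 ± 0.125, adjusted p = 1.31e-07). ID3 rose again, from 317 and 280 CPM to 391 and 365 CPM (0.36 ± 0.08, adjusted p = 0.000735). TCF3 (0.75 ± 0.0889, adjusted p = 3.42e-07), TCF4 (1.46 ± 0.153, adjusted p = 2.72e-08) and TCF12 (0.76 ± 0.0836, adjusted p = 1.03e-07) rose too. These 7 calls stand beside 53.3% of all genes. The interaction in A549, called for 6.49% of genes, was called for ID4 (0.76 ± 0.196, adjusted p = 0.0206), but not in DESeq2 (adjusted p = 0.0923) nor in the 5 fits without siCont A, siCont B, TGFβ A, siKLF10 A or siKLF10 B (adjusted p = 0.0514 to 0.204). For TCF12 it was 0.38 ± 0.119 (adjusted p = 0.0612), called without the filter on low counts (0.40, adjusted p = 0.0289). For ID1, which had the called interaction in Panc1, it was 0.07 ± 0.117 in A549 (interval −0.17 to 0.31, adjusted p = 0.797). ID2 gave −0.27 ± 0.13 (adjusted p = 0.26), ID3 −0.19 ± 0.114 (adjusted p = 0.38) and TCF4 0.18 ± 0.222 (adjusted p = 0.726). TCF3 gave 0.20 ± 0.126 (adjusted p = 0.414), which was called without siKLF10 with TGFβ A (0.32, adjusted p = 0.0317).

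Differences between the lines in the siKLF10 effect were tested as well. Without TGFβ the ID1 effect was higher in A549 by 0.66 ± 0.134 (adjusted p = 0.000811), and that of ID3 by 0.55 ± 0.173 (adjusted p = 0.0319), where 17.2% of genes were called. The ID3 call was lost in 7 of the 10 fits that left out 1 library (adjusted p up to 0.154). The other 5 members gave 0.20 ± 0.15 for ID2, 0.44 ± 0.326 for ID4, 0.28 ± 0.12 for TCF3, 0.06 ± 0.229 for TCF4 and −0.13 ± 0.119 for TCF12 (adjusted p = 0.105 to 0.921). With TGFβ, where 19.8% were called, the effect on TCF3 was higher in A549 by 0.58 ± 0.117 (adjusted p = 0.000483) and that on ID1 differed by −0.16 ± 0.138 (interval −0.44 to 0.13, adjusted p = 0.476). TCF4 (0.44 ± 0.169, adjusted p = 0.0596) and TCF12 (0.31 ± 0.117, adjusted p = 0.0549) were each called in 2 of the 10 fits that left out 1 library. ID2 gave −0.28 ± 0.234, ID3 −0.11 ± 0.194 and ID4 −0.09 ± 0.583 (adjusted p = 0.451 to 0.945). The TGFβ response within siKLF10 differed for 5 of the 7 members, against 37.0% of all genes. It was higher in A549 for ID3 (1.82 ± 0.183, adjusted p = 6.77e-08), TCF3 (0.72 ± 0.119, adjusted p = 8.61e-06), ID2 (0.68 ± 0.202, adjusted p = 0.00634) and TCF12 (0.29 ± 0.118, adjusted p = 0.0499) and lower for ID1 (−0.53 ± 0.136, adjusted p = 0.00246). TCF12 lost that call in DESeq2 (adjusted p = 0.0731), with other size factors (adjusted p = 0.056) and without robust dispersions (adjusted p = 0.057), and kept it in only 2 of the 10 fits that left out 1 library (adjusted p up to 0.146). ID4 gave 0.01 ± 0.424 (adjusted p = 1) and TCF4 −0.44 ± 0.198 (adjusted p = 0.0784). The siKLF10 effect on KLF10 itself was 0.68 ± 0.0995 higher (less negative) in A549 without TGFβ and 0.69 ± 0.097 higher with it (adjusted p = 8.08e-06 and 3.33e-06). The A549 libraries labelled siKLF10 showed no called KLF10 decrease without TGFβ, so these differences compare libraries by label and not at equal knockdown.

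Over all 8 groups, the levels of ID2 and ID4 were ordered by line first, with the 4 A549 groups above the 4 Panc1 groups. For ID2 the only neighbours in that order whose libraries overlapped were Panc1 TGFβ (2.83 ± 0.253 CPM) and Panc1 siKLF10 with TGFβ (2.47 ± 0.502 CPM). For ID4 the A549 groups ran from 29.6 ± 2.29 CPM (siKLF10) and 28.9 ± 0.103 CPM (siCont), which overlapped, to 13.7 ± 0.525 CPM (siKLF10 with TGFβ) and 7.62 ± 1.02 CPM (TGFβ). ID3 also had all A549 groups on top, led by siKLF10 with TGFβ (378 ± 18.7 CPM), TGFβ (332 ± 18.2 CPM) and siKLF10 (298 ± 26.6 CPM), none overlapping its neighbour. The order of ID1 ran from A549 siKLF10 (414 ± 26.4 CPM) to Panc1 TGFβ (75.4 ± 6.84 CPM), and A549 TGFβ (180 ± 5.15 CPM) overlapped Panc1 siCont (176 ± 12.1 CPM).

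TCF4 levels were ordered by treatment before line. TCF4 was highest in the TGFβ groups of Panc1 (29.1 ± 2.81 CPM with siKLF10 and 28.5 ± 1.5 CPM with siCont, overlapping), followed by those of A549 (19.2 ± 1.21 and 13.8 ± 0.645 CPM, not overlapping). The 4 groups without TGFβ lay between 5.95 and 7.83 CPM, each overlapping the next. TCF12 was highest in siKLF10 with TGFβ (173 ± 5.95 CPM in Panc1 and 166 ± 9.31 CPM in A549), which overlapped each other and Panc1 TGFβ (165 ± 9.54 CPM). TCF3 was highest in A549 siKLF10 with TGFβ (146 ± 21 CPM) and lowest in both Panc1 siKLF10 groups, which overlapped.

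Across the 20 libraries, with the mean of each line taken off log2(CPM + 1), the levels of ID2 and TCF4 had a Pearson correlation of −0.978, and ID2 and TCF12 of −0.893. ID1 correlated at 0.873 with ID4 and at 0.812 with ID2, TCF4 at 0.907 with TCF12, and ID3 at only 0.331 with ID4. These values describe libraries that share lines and treatments and carry no test. Among 9912 genes with at least 5 CPM in both lines, those most like ID2 were CABLES1 (0.972), ABCG2 (0.968), KIAA0182 (0.961), DENND3 (0.957) and ZNF467 (0.956). Those most like ID1 were ASS1 (0.923), CD55 (0.911), LMTK3 (0.903), PKP2 (0.886) and ASCC1 (0.884). Those most like ID3 were AFAP1-AS1 (0.91), BRSK2 (0.897), ARRDC1 (0.894), AGPAT3 (0.887) and JUP (0.886), of which AFAP1-AS1 is an antisense gene whose reads cannot be told from those of its partner where strand was not used.

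Genes of the BMP and TGFβ pathways and related factors were listed as 29 genes, of which 25 passed the filter in Panc1 and 26 in A549. With TGFβ, 9 were called higher and 7 lower in Panc1, and 14 higher and 5 lower in A549, where 29.0% of all genes in Panc1 and 47.7% in A549 were called in either direction. BMP2, a ligand of the pathway, averaged 1.08 ± 0.294 CPM in Panc1 siCont and 0.759 ± 0.041 CPM with TGFβ (log2 −0.49 ± 0.345, adjusted p = 0.309). In A549 BMP2 went from 1.88 and 2.38 CPM in the siCont libraries to 54.3 and 56.4 CPM in the TGFβ libraries (4.75 ± 0.227, adjusted p = 3.15e-15). The receptor BMPR2 rose in both lines, by 0.99 ± 0.0757 (adjusted p = 6.33e-10) in Panc1 and 1.97 ± 0.0802 (adjusted p = 1.06e-14) in A549. SMAD7, the inhibitory SMAD induced by TGFβ, rose by 1.22 ± 0.107 in Panc1 (adjusted p = 4.79e-09) and 1.53 ± 0.0945 in A549 (adjusted p = 8.21e-12).

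The secreted BMP antagonist NOG rose in Panc1 (1.70 ± 0.138, adjusted p = 8.38e-10) and in A549 (1.52 ± 0.259, adjusted p = 3.65e-05). The ubiquitin ligase gene SMURF2 rose in both lines as well, by 0.80 ± 0.0645 in Panc1 (adjusted p = 1.34e-09) and 1.30 ± 0.0985 in A549 (adjusted p = 2.99e-10). GDF15, a stress-induced cytokine of the TGFβ superfamily, fell by 1.48 ± 0.162 on the log2 scale in Panc1 (adjusted p = 5.95e-07) and by 2.25 ± 0.151 in A549 (adjusted p = 1.35e-11). SMAD6, the inhibitory SMAD that is itself a BMP target, fell in A549 (−0.49 ± 0.0935, adjusted p = 0.000169) and was not called in Panc1 (−0.21 ± 0.0971, adjusted p = 0.117). ATF3, the repressor that joins SMAD3 at the ID1 promoter, stood at 2.80 ± 0.401 CPM in Panc1 siCont and 2.96 ± 0.202 CPM with TGFβ (0.07 ± 0.195, adjusted p = 0.827). In A549 ATF3 rose from 5.08 ± 0.0429 to 11.8 ± 0.263 CPM (1.29 ± 0.18, adjusted p = 3.01e-06). With siKLF10 and TGFβ in Panc1 it was higher than with TGFβ alone (0.78 ± 0.179, adjusted p = 0.00121), and so was SMAD6 (0.81 ± 0.0939, adjusted p = 5.1e-07). SMAD6 was higher with siKLF10 without TGFβ as well (29.4 ± 1.05 against 18.1 ± 0.601 CPM, 0.70 ± 0.0917, adjusted p = 3.44e-06), where ID1 was lower.

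**Figure D5:**
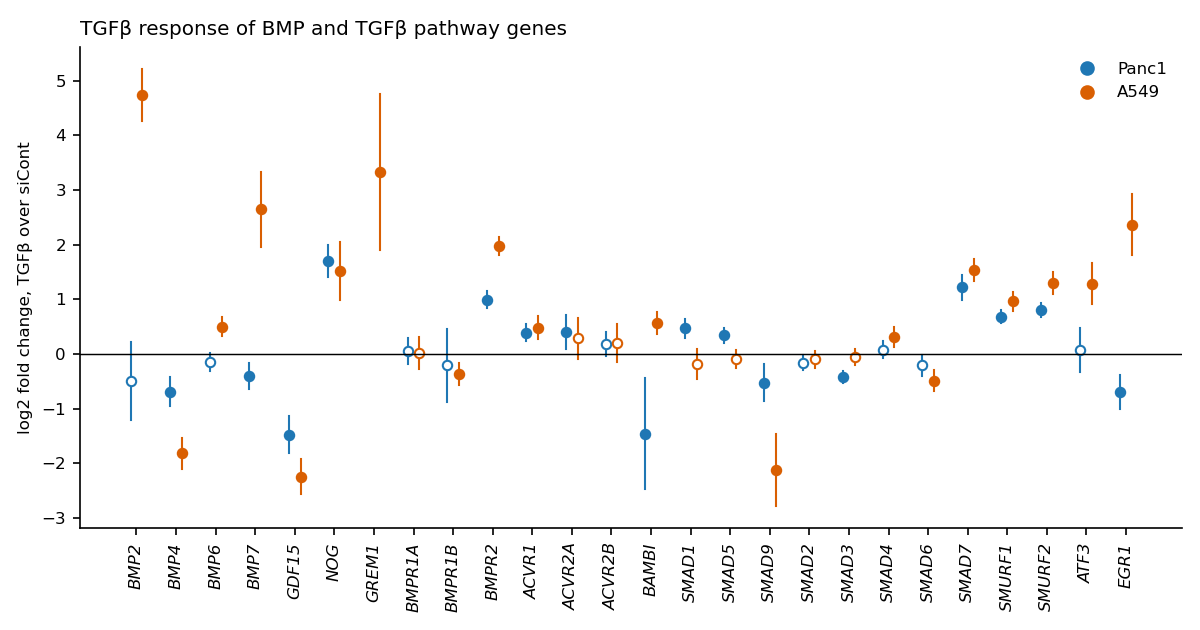
Log2 change with TGFβ over siCont for the listed genes of the BMP and TGFβ pathways and related factors that passed the filter, in Panc1 and A549. Bars are 95% intervals from the edgeR fit and filled symbols have an adjusted p under 0.05. BMP2 lies at −0.49 in Panc1 and 4.75 in A549, while SMAD7 and BMPR2 are above 0 in both lines.

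Tissue-restricted partners of the E proteins were mostly too low to test: of 25 listed genes, 2 passed the filter in Panc1 and 5 in A549. ATOH8, a partner factor known in liver and endothelium, fell from 10.1 ± 1.72 to 0.837 ± 0.0723 CPM with TGFβ in Panc1 (log2 −3.59 ± 0.254, adjusted p = 3.64e-12) and from 42.7 ± 2.38 to 14.5 ± 0.0992 CPM in A549 (−1.49 ± 0.127, adjusted p = 1.36e-09). MSC, a repressor of this class, rose in A549 from 30.9 ± 0.66 to 63.7 ± 4.85 CPM (1.11 ± 0.0982, adjusted p = 3.65e-09). TWIST2 (−0.82 ± 0.244, adjusted p = 0.00715) and TWIST1 (−0.79 ± 0.258, adjusted p = 0.013), regulators of mesenchyme, fell in A549. In Panc1 TWIST2 was not called (0.28 ± 0.384, adjusted p = 0.628) and TWIST1 held 7 counts in siCont and 0 with TGFβ.

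Of 6 genes known as targets of E proteins or ID proteins, 5 passed the filter in Panc1, where 2 were called higher and 3 lower with TGFβ. In A549 4 passed, with 2 called higher and 1 lower. Over all genes 29.0% were called in Panc1 and 47.7% in A549. CDH1 fell in both lines, from 14.9 ± 3.26 to 3.65 ± 0.697 CPM in Panc1 (−2.03 ± 0.188, adjusted p = 6.45e-09) and from 330 ± 3.27 to 40.2 ± 4.93 CPM in A549 (−2.96 ± 0.0896, adjusted p = 6.13e-17). The cell-cycle inhibitor gene CDKN1A rose, by 0.45 ± 0.0824 in Panc1 (adjusted p = 0.000185) and 1.35 ± 0.0821 in A549 (adjusted p = 7.91e-12), and THBS1, a matrix glycoprotein repressed by ID1 in other cells, rose by 0.44 ± 0.086 (adjusted p = 0.000507) and 3.88 ± 0.0837 (adjusted p = 5.99e-19). CDKN1C, also a cell-cycle inhibitor gene, was among the 3 called lower in Panc1, opposite in direction to CDKN1A. CDKN2A, also among these 3, held 113 counts over the Panc1 siCont libraries and 4, 1 and 8 over the other groups (TGFβ, siKLF10 and both). CDKN2B, which did not pass the filter, held 36, 0, 0 and 3. These counts move with the basal keratinocyte markers of the siCont libraries, whose part in them was not tested. CDKN2A passed the filter on low counts only through siCont. Its call is therefore a description and is not read as a TGFβ response.

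Of 16 binding partners and turnover factors, 15 were tested in Panc1, where the caveolin gene CAV1 (−0.39 ± 0.0528, adjusted p = 4.22e-06) and the acetyltransferase gene KAT2B (−0.42 ± 0.0627, adjusted p = 1.37e-05) fell with TGFβ and the other 13 were not called, against 29.0% of all genes called. In A549 14 were tested, 4 were called higher and 2 lower, a share near the 47.7% of all genes. FZR1, an activator of the ubiquitin ligase that degrades ID proteins, rose there from 33.2 ± 4.04 to 92.3 ± 3.15 CPM (1.54 ± 0.1, adjusted p = 2.01e-11), and it gave 0.23 ± 0.11 in Panc1 (adjusted p = 0.133). The response of FZR1 differed between the lines by 1.24 ± 0.156 (adjusted p = 1.07e-07). CAV1 (−0.50 ± 0.0853, adjusted p = 5.15e-05) and KAT2B (−0.63 ± 0.117, adjusted p = 0.000115) fell in A549 as well, and the corepressor gene CBFA2T2 rose (0.52 ± 0.12, adjusted p = 0.00102).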

How the data were processed

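Counts per gene are the authors' deposited whole-number tables, 1 per library, with 5 summary lines that name no gene and were left out. Per the submitters' processing notes, TopHat, Bowtie2, HTSeq 0.6.0 and DESeq2 were used with build hg19; their roles and the strand setting are not given in the sources used here. The share of reads that fell in no annotated gene was 33.6 to 36.9% for Panc1 and 57.6 to 60.1% for A549.

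Fits of the count tables used edgeR 4.0.16 (R 4.3.3): filterByExpr (minimum count 10), TMM and robust quasi-likelihood fits with a mean per group. All groups of a line shared 1 fit (8 residual degrees of freedom in Panc1, 4 in A549), and differences between lines came from a fit of all 20 libraries (12). Genes with an adjusted p under 0.05, by the quasi-likelihood test of edgeR with Benjamini-Hochberg adjusted p over all genes tested (13218, 14124 and 15058), were called. SEs are Wald SEs with the quasi-likelihood dispersion. Precision is limited by the depth given above and by 2 or 3 libraries per group, and the floor of 3 counts covers counting error only. No replicate pair of libraries was identical within sampling noise (chi-square per degree of freedom at least 2.06).

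The 7 members were named by rule. From each gene list, up to 4 called genes per line with the smallest adjusted p in the TGFβ comparison were eligible, with SMAD6, SMAD7, ATF3, CDH1, CDKN1A and CDKN2B in any case, and fewer are printed; for ID1, ID2 and ID3 the 5 genes of highest correlation were named. The members and lists were chosen with earlier results of these data known. Exon lengths are from GENCODE (build GRCh38), promoters from RefSeq, and all 7 members matched the promoter table. Alternatives tried were DESeq2 1.42.0, other size factors, no filter, no robust dispersions, the library letter as a replicate block, plain CPM and leaving out each library. The authors' tables of their own comparisons were not used here.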

Additional observations from a re-analysis of the deposited data

Results flagged for a closer look

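These results are listed because a test of the difference between 2 contrasts passed (adjusted p under 0.05, the quasi-likelihood test of edgeR with Benjamini-Hochberg adjusted p). Within a line, the TGFβ response of ID1 in Panc1 was 0.95 higher on the log2 scale with siKLF10 than with siCont, and that of ID4 in A549 was 0.76 higher with the libraries labelled siKLF10. Between the lines, as A549 minus Panc1, the TGFβ response with siCont differed by 2.48 for ID3, 1.16 for ID2, 0.43 for TCF3 and −0.83 for TCF4. With siKLF10 it differed by 1.82 for ID3, 0.72 for TCF3, 0.68 for ID2, 0.29 for TCF12 and −0.53 for ID1. The effect of siKLF10 without TGFβ differed by 0.66 for ID1 and 0.55 for ID3, and with TGFβ by 0.58 for TCF3. Some of these calls were not firm. DESeq2 called neither the 0.76 for ID4 in A549 (adjusted p = 0.0923) nor the 0.29 for TCF12 (adjusted p = 0.0731). The 0.55 for ID3 was not called when any Panc1 siCont library was left out. Called directions were opposite in the 2 lines for the TGFβ response of ID3, both with siCont and with siKLF10, and for the siKLF10 effect on ID1 without TGFβ. In A549 without TGFβ, the libraries labelled siKLF10 showed no called KLF10 decrease (106 ± 3.22 against 111 ± 2.47 CPM). The opposite directions of ID1 thus compare libraries by label, and its A549 call was lost when some single libraries were left out.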

How the results depend on the processing

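All counts here are of the 7 members called. Leaving out 1 library at a time gave 6 to 6 in Panc1 for TGFβ against siCont, 2 to 4 for siKLF10 against siCont, 2 to 3 for siKLF10 with TGFβ against TGFβ, 5 to 6 for TGFβ within siKLF10 and 1 to 2 for the interaction (2 without siKLF10 A). The 6 for TGFβ against siCont always include ID4, whose p there is a description because of its low counts. In A549 the same comparisons gave 7 to 7, 0 to 3, 3 to 6, 7 to 7 and 0 to 3; the lone library of a group was then assumed to vary like the other groups. In A549, members lost calls for siKLF10 without siCont A, siCont B or siKLF10 A. They also lost calls for siKLF10 with TGFβ without either TGFβ library. The A549 interaction call of ID4 was lost without siCont A, siCont B, TGFβ A, siKLF10 A or siKLF10 B. In all of these fits fewer genes were called among all tested. Without siKLF10 with TGFβ A or B, more members had a called interaction, as did more genes among all tested. The ID4 interaction ran from 0.60 to 0.89 over the fits that left out a library. Where edgeR called 0 members, 2 or 3 had an unadjusted p under 0.05. Between the lines the ranges were 4 to 4 for the TGFβ response, 4 to 5 for it with siKLF10, 1 to 2 for the siKLF10 effect without TGFβ and also with it, and 4 to 5 for the siCont level. The siKLF10 effect without TGFβ fell to 1 in 7 fits, those without any Panc1 siCont library, Panc1 siKLF10 C, either A549 siCont library or A549 siKLF10 A. With TGFβ it rose to 2 without Panc1 TGFβ C, Panc1 siKLF10 with TGFβ A or either A549 siKLF10 with TGFβ library.

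Under the other settings the A549 interaction count of 1 went to 0 in DESeq2 (2 members at an unadjusted p under 0.05) and to 2 without the filter on low counts and with the replicate block (TCF12 joined, 0.38, adjusted p = 0.0442). Other counts changed by at most 1 member: DESeq2 lost ID4 for TGFβ within Panc1 siKLF10 (5), TCF4 for siKLF10 with TGFβ in A549 (4) and TCF12 for the TGFβ response with siKLF10 between lines (4, also with other size factors and without robust dispersions). With no filter ID4 was lost from the first of these (5) and ID1 was gained for the TGFβ response between lines (5). Genes with a called A549 interaction numbered 916, against 554 in DESeq2. The block also ended the TCF12 call on the siCont level (−0.20, adjusted p = 0.057) and changed no other call of a member. Library letters did not pair the samples throughout. Same-letter deviations correlated over 0.1 in 2 of 18 pairs of Panc1 libraries. Both were between siKLF10 and siKLF10 with TGFβ (0.455 for A and 0.208 for B, against −0.016 for C). In A549 it was 4 of 12, at most 0.171. With 2 libraries per group, A and B give the same value there, so the 12 are not separate values.

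Signs changed only in differences that were not called. Leaving out a library gave ranges for TCF3 in Panc1 of −0.02 to 0.09 (TGFβ), −0.03 to 0.03 (TGFβ within siKLF10) and −0.08 to 0.03 (interaction), for TCF4 with TGFβ in Panc1 −0.02 to 0.11 (siKLF10), and for TCF12 −0.10 to 0.06 (Panc1 interaction, 0 in DESeq2 and with other size factors). In A549 they were −0.01 to 0.14 for ID4 and −0.06 to 0.01 for TCF12 (siKLF10), and −0.05 to 0.19 for ID1 (interaction). Between the lines they were −0.02 to 0.18 for TCF4 (siKLF10 without TGFβ), −0.20 to 0.06 for ID3 and −0.45 to 0.31 for ID4 (siKLF10 with TGFβ), and −0.35 to 0.41 for ID4 (TGFβ within siKLF10, 0 with the block). The cause of these changes was not tested. Depth limits ID4 in Panc1, where groups with TGFβ held 2 to 8 counts per library.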
